A study of Mus musculus with 4 samples.

Results

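The mitochondrial ribosomal protein genes were taken as all genes in the deposited peak lists whose symbol starts with Mrpl or Mrps and a digit, without pseudogene names containing -ps. The rule found 65 genes, 42 Mrpl and 23 Mrps, among the 12182 genes with a peak in either list. The lists describe all of them as mitochondrial ribosomal proteins (in 1 with a spelling error, Mrps7). A RefSeq gene table holds 78 protein-coding symbols of this kind, and 13 of them had no peak in either list (Mrpl1, Mrpl21, Mrpl22, Mrpl30, Mrpl35, Mrpl47, Mrpl49, Mrps14, Mrps16, Mrps18b, Mrps22, Mrps31 and Mrps36).

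The assay was MeRIP-seq, which maps N6-methyladenosine (m6A): RNA fragments bound by an antibody against m6A (IP) are sequenced, as are fragments of the unselected input. The groups were hearts of 4-day-old Wtapflox/flox mice, which carry the floxed Wtap allele and serve as control, and of 4-day-old Wtap-CKO mice, in which Wtap is conditionally deleted. The Cre driver and the cells it acts in are not given in the sources used here. RNA was pooled from 7 control and 8 knockout mice, and each genotype had 1 IP and 1 input library. Without replicates the genotypes could not be tested against each other, and the depth is unknown because the lists hold no read counts. Exact (Clopper-Pearson) 95% intervals of shares and order-statistic 95% intervals of medians cover counting error only.

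The mitochondrial ribosome translates the membrane proteins of the respiratory chain that mitochondrial DNA encodes. All of its proteins are encoded in the nucleus and imported. Some descend from bacterial ribosomal proteins and others were added in mitochondria. Heart muscle, which is densely packed with mitochondria, depends on this ribosome for oxidative phosphorylation. WTAP is a regulatory subunit of the nuclear m6A writer complex. In messenger RNA m6A is known to concentrate near the stop codon and in long internal exons, and anti-m6A antibodies also bind the related modified base next to the cap.

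Positions are 1-based on mouse build GRCm39 and strands are those of the annotated gene. The part of the transcript under a peak was not analysed here. The authors' caller gave each peak a linear fold of IP over input and the log10 of its p and q values. Fold is no transcript level, and in bulk heart tissue fewer cells of a type and less RNA per cell cannot be told apart. The lists were called separately, so values from both are set side by side as descriptions. Wtap itself had 3 control peaks and 4 knockout peaks, and these calls do not check the deletion. All 8 cardiomyocyte markers looked at (Myh6, Myh7, Tnnt2, Actn2, Ryr2, Pln, Nppa and Ttn) had peaks in both lists. Among the markers of other cell types, peaks were present for all 6 fibroblast, all 6 endothelial, all 5 smooth muscle and pericyte, 2 of 4 immune and 2 of 5 erythroid genes.

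Most mitochondrial ribosomal protein genes carried peaks in both genotypes, and those found in 1 list were mostly found in the control. Of the 65 genes, 46 (70.8%, 58.2 to 81.4) had a control and a knockout peak, against 77.6% of all 12182 genes. A control peak alone was listed for 13 genes (20%, 11.1 to 31.8), against 10.5%. A knockout peak alone was listed for 6 (9.23%, 3.46 to 19.0), against 11.9%. The backgrounds of both lists and of the knockout list fall inside the members' intervals, and that of the control list falls just below. The control list held 80 member peaks over 25706 exonic bases in 59 genes, and the knockout list held 69 over 16739 bases in 52 genes. In the control list 40 genes had 1 peak, 17 had 2 and 2 had 3 (Mrpl15 and Mrpl45). In the knockout list 38 had 1 peak, 11 had 2 and 3 had 3 (Mrpl51, Mrps7 and Mrps34).

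Fold enrichment of the members was below that of all peaks in both lists. Within the control list, the median fold of member peaks was 3.51 (3.10 to 4.54), against 7.22 over all peaks, and 40% of them reached a fold of 4, against 74.6%. Within the knockout list, the median fold was 2.69 (2.48 to 3.22) against 7.03, and 31.9% reached 4, against 73.1%. Medians were also low for nuclear oxidative phosphorylation genes (3.29 and 3.20) and cytosolic ribosomal protein genes (3.90 and 3.88), so low fold is not particular to the members. The significance of the calls did not follow the same order. The median log10 q of members was -16.1 (-25.3 to -10) among control peaks, beyond the -9.17 of all genes. Among knockout peaks it was -9.36 (-13.9 to -6.31), against -7.69. Median exonic lengths of member peaks were 295 bases (control) and 210 bases (knockout), against 270 and 241 over all peaks. Peaks of 2 or more exonic blocks made up 19 of 80 control (23.8%) and 24 of 69 knockout member peaks (34.8%), against 21.2% and 23.3% of all peaks.

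A peak has a counterpart here when it overlaps a same-strand peak of the other genotype by 1 or more exonic bases. Of the 80 control peaks of members, 36 (45%, 33.8 to 56.5) had no knockout counterpart, against 23.9% of all control peaks. Of the 69 knockout peaks, 24 (34.8%, 23.7 to 47.2) had no control counterpart, against 24.5%. Peaks with q at or under 1e-10 are called strong. They made up 50 of 80 control peaks (62.5%, against 48% of all control peaks) and 32 of 69 knockout peaks (46.4%, against 43.2%). In the control list 19 of 50 strong member peaks (38%, 24.7 to 52.8) lacked a knockout counterpart, against 8.72% of all strong control peaks. In the knockout list 4 of 32 (12.5%, 3.51 to 29.0) lacked a control counterpart, against 4.04%. At these settings the backgrounds of both knockout shares lie inside the members' intervals, near the lower ends, and those of both control shares lie below them. Under several other settings, given with the dependence on processing, the knockout backgrounds also lie below. By gene, 16 of the 43 members with a strong control peak (37.2%) had one without counterpart, against 11.5% of all such genes. For 13 of the 19 peaks, the knockout list held a peak elsewhere in the gene. The share over all strong peaks was not computed. For control-only peaks of any strength it was 19 of 36 in members and 3386 of 4973 over all genes.

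Over all genes, strong control peaks of low fold lacked a counterpart more often, so the shares were also set against peaks in the same class of fold or of q. Among strong control peaks with a fold under 4, 13 of 28 member peaks (46.4%, 27.5 to 66.1) had no counterpart, against 21.8% of all. With a fold of 4 or more it was 6 of 22 (27.3%, 10.7 to 50.2) against 6.44%. Between log10 q of -10 and -30 it was 10 of 22 (45.5%, 24.4 to 67.8) against 12.1%. At -30 or below it was 9 of 28 (32.1%, 15.9 to 52.4) against 5.20%. Among control peaks that were not strong it was 17 of 30 (56.7%, 37.4 to 74.5) against 38%, with the background inside the interval. The classes by fold and by q split the same 50 strong peaks, and none matched both. Of all strong control peaks 85.1% reached a fold of 4, against 44% of the members', so the q classes differ in fold. Among strong knockout peaks with a fold under 4, 2 of 19 member peaks (10.5%, 1.30 to 33.1) had no counterpart, against 9.65%, and with a fold of 4 or more 2 of 13 (15.4%, 1.92 to 45.4), against 2.98%. At log10 q of -30 or below it was 0 of 9, against 0.791%, and between -10 and -30 it was 4 of 23 (17.4%, 4.95 to 38.8), against 6.76%. These knockout backgrounds all lie inside the members' intervals. Nearest the threshold of strong were Mrpl4 inside (log10 q -10) and Mrpl50 outside (-9.73) in the control list, and Mrpl55 inside (-11.5) and Mrps28 outside (-9.74) among single-list knockout peaks.

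**Figure D1:**
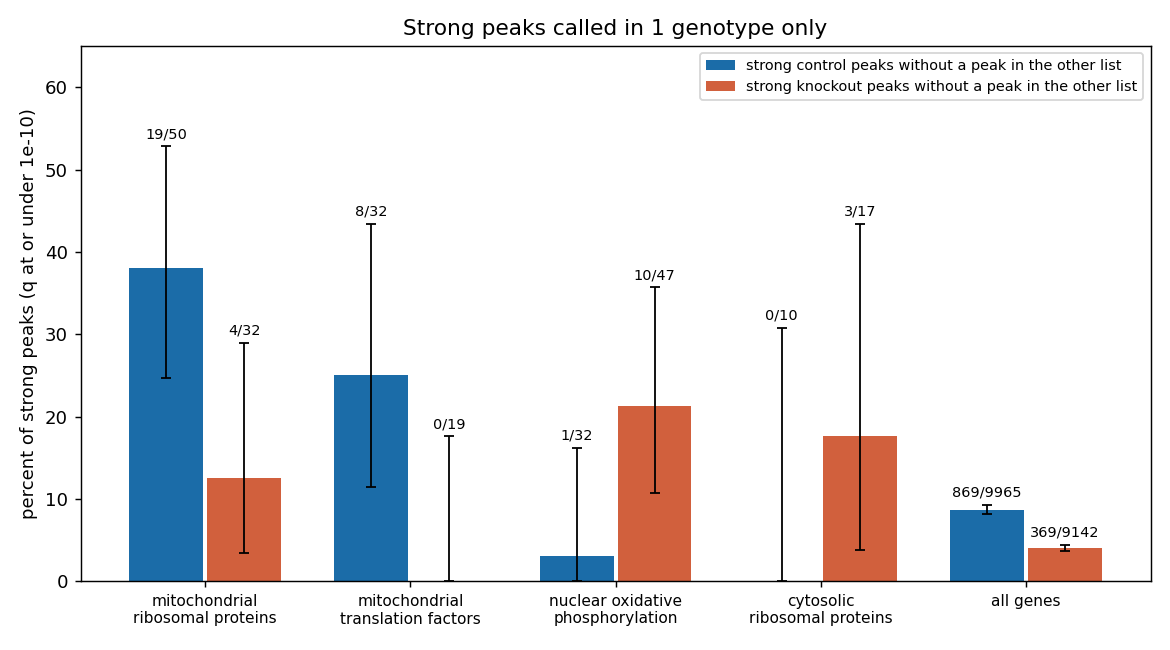
Percent of strong peaks (q at or under 1e-10) in 1 list that overlap no peak of the other list, for 5 gene groups, with exact 95% binomial intervals as error bars and peak counts above the bars. Mitochondrial ribosomal proteins stand at 19 of 50 in the control list, nuclear oxidative phosphorylation genes at 1 of 32.

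The stalk of the large subunit, which recruits translation factors, is built on Mrpl10, Mrpl11 and Mrpl12. Mrpl12 (ENSMUSG00000039640) had the strongest peak of all members. On chromosome 11 at 120379042 to 120379626, plus strand, its control fold was 6.99 with a log10 p of -1110, and its log10 q is listed as minus infinity in both lists. The knockout peak at 120379042 to 120379597 had a fold of 3.42 and a log10 p of -385. The knockout list held in addition a peak further upstream, at 120375468 to 120375933, with a fold of 5.63 (log10 q -12.6). Mrpl11 went the other way, at 2.75 for the control peak (log10 q -6.61) and 10.3 for the knockout peak (-20.6). Mrpl10 had a weak control peak only (fold 1.83, log10 q -5.57).

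The central protuberance, at the top of the large subunit, was represented by 8 genes. Of these, 7 had peaks in both lists and Mrpl18 in the control list only (chromosome 17, 13130266 to 13130622, fold 2.23, log10 q -57.2). In 5 of the 6 overlapping pairs the fold was lower in the knockout list, while the p value was weaker there in 3 of 6. Mrpl46 stood at 8.47 for control (log10 q -107) and 2.67 for knockout (-2.50), Mrpl48 at 15.2 and 5.17 (with the smaller q in the knockout, -23.1 and -31.8), and Mrpl27 at 3.46 and 1.85. Mrpl40 stood at 3 and 2.19. Mrpl52 was the exception, at 2.18 and 2.57. Mrpl38 had the highest fold of any member in the control list, 28.9 on chromosome 11 at 116026008 to 116029514, beside 4.38 in the knockout. Its order by q was also the reverse, with log10 q of -9.23 for control and -22.0 for knockout. The control peak spanned 1051 exonic bases and the knockout peak 271. Mrpl58, which encodes a peptidyl-tRNA hydrolase that releases stalled ribosomes, had 1 peak in each list without overlap. The control peak lay at 115301123 to 115301745 on chromosome 11 (fold 2.37, log10 q -29.2) and the knockout peak upstream at 115294578 to 115294786 (fold 2.48, log10 q -6.13).

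Around the exit for the new polypeptide, 6 genes had peaks. Mrpl45, whose protein anchors the ribosome at the inner membrane, had 3 control peaks and 1 knockout peak. The most upstream, on chromosome 11 at 97219344 to 97219732, had folds of 4.89 for control (log10 q -68.0) and 1.99 for knockout (-5). The next, at 97219970 to 97220239, had a fold of 16.8 (log10 q -11.4) and no knockout counterpart. Mrpl44, which has an RNase III fold, had a shared peak of identical bounds and of fold 2.68 in both lists, and a control-only peak upstream of it (fold 2.94, log10 q -17.7). Mrpl17 had a shared peak (2.12 and 1.71). Mrpl23 stood at 7.22 and 28.1, both at weak q (-2.22 and -6.45). Mrpl39 had a control peak only (log10 q -3.26) and Mrpl24 a knockout peak only (-4.89).

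Among the other Mrpl genes, several strong control peaks overlapped knockout peaks of lower fold, others had no counterpart, and a few overlapped knockout peaks of higher fold. Mrpl41 (chromosome 2, 24864159 to 24864873, minus strand) had a control fold of 9.42 (log10 p -354) and a knockout fold of 2.96 (-56.3). Its protein has no bacterial homologue. Mrpl19, whose bacterial homologue lies at the interface of the subunits, stood at 7.54 and 3.03 (log10 q -115 and -21.7), Mrpl51 at 2.99 and 1.28 (-98.5 and -5.19), and Mrpl14 at 4.71 and 2.12 (-83.8 and -23.3). Mrpl54 stood at 3.10 and 1.41, and Mrpl9 at 10 and 1.47 (-36.2 and -1.98). Mrpl57 was higher in the knockout (3.81 and 13.0), but its peaks shared 61 of 449 control bases. Mrpl2, whose bacterial homologue supports the peptidyl transferase centre, had 2 shared peaks. On that at 46957155 to 46958356 of chromosome 17 the control fold was 3.90 and the knockout fold 25.3, and on the other it was 3.12 and 2.65. Of Mrpl42, the fold was 1.70 and 3.22 (log10 q -5.88 and -34.4), and of Mrpl37, 3.35 and 6.19. Mrpl34 and Mrpl13 differed little, at 2.94 and 2.75 and at 2.54 and 2.42.

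Control-only peaks of the other Mrpl genes were led by Mrpl16, whose bacterial homologue lies close to the transfer RNA sites (chromosome 19, 11751666 to 11752055, plus strand, fold 4.96, log10 q -157). It had no knockout peak at all. The control-only peak of Mrpl43 (44993566 to 44994370 on chromosome 19, fold 5.01, log10 q -111) overlapped a control peak of Twnk, and that of Mrpl53 (fold 2.66, log10 q -65.5) a peak of Gm42688, and the reads cannot be assigned to either gene for certain. Mrpl9 had a control-only peak (fold 3.87, log10 q -36.8), as had Mrpl38 (3.36, -18.5), Mrpl50 (3.46, -17.0), Mrpl3 (5.13, -10.5) and Mrpl4 (2.19, -10). Mrpl50 had 2 control peaks and no knockout peak, and Mrpl15 had 3, all weak (log10 q -7.92, -3.52 and -2.42). Mrpl20, Mrpl32 and Mrpl36 were control-only with log10 q between -2.95 and -4.31. Knockout-only genes were Mrpl33 (fold 4.31, log10 q -15.6, overlapping a peak of Gm43809), Mrpl55 (2.49, -11.5), Mrpl28 with 2 peaks (-6.49 and -3.27) and Mrpl24.

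Most Mrps genes encode proteins of the small subunit, which reads the messenger RNA. Mrps7, whose bacterial homologue organises the head of the small subunit (chromosome 11, 115497679 to 115498477, plus strand), had a control fold of 11.2 (log10 p -368) and a knockout fold of 2.19 (-44.2). Its second shared peak, upstream at 115494988 to 115495613, was alike in both lists (2.29 and 2.39). Mrps2 stood at 10.2 and 2.00 (log10 q -164 and -13.9), Mrps25 at 5.86 and 2.83 over identical bounds (-118 and -22.1), and Mrps26 at 11 and 5.90. Mrps27, which has pentatricopeptide repeats of the kind that bind RNA, stood at 4.84 and 2.04 (-108 and -11.3), and Mrps35 at 3.30 and 2.69 (-88.1 and -29.0). Mrps5, whose bacterial homologue bears on decoding accuracy, went the other way, at 6.13 and 9.51 (-42.2 and -61.2). Mrps18a, whose protein is placed in the large subunit despite its name, and Mrps18c were also higher there, with 2.08 and 6.10 (-4.64 and -39.3) and with 2.27 and 5.50 (-3.63 and -15.2). Mrps28 stood at 3.34 and 23.4, but with the weaker q in the knockout (-13.9 and -5.52).

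Mrps34, whose protein is specific to the mitochondrial ribosome, had the most shared peaks of any member, 2 control and 3 knockout peaks. Its main control peak (chromosome 17, 25114509 to 25115881; plus strand), of fold 11.2 and log10 q -216, covered a pair of knockout peaks, of fold 1.87 at 25114831 to 25115100 and of fold 28.1 at 25115369 to 25115881. A short upstream peak had log10 q of -3.62 for control and -48.3 for knockout (fold 1.59 and 2.28). The control peak overlapped peaks of Mapk8ip3 and Nme3, and reads of neighbouring transcripts cannot be told apart there. In all, 9 member peaks of either list overlapped a peak of another gene, among them those of Mrpl48 (Rab6a), Mrps18c (Gm43511), the knockout peak of Mrps27 (6430562O15Rik), the upstream peak of Mrps30 (B430218F22Rik) and the upstream control peak of Mrps24 (Urgcp).

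Strong control-only peaks of Mrps genes were those of Mrps24, which stands in for the bacterial protein at the messenger RNA entry (chromosome 11, 5654372 to 5654701, minus strand, fold 3.43, log10 q -91.8, and an upstream peak of fold 4.77, log10 q -14.8), Mrps23 (fold 3.71, log10 q -74.8, and 1.97, -23.6), Mrps30 (3.71, -28.6; also placed in the large subunit) and Mrps12. Mrps12, a protein of the decoding centre, was listed with 2 nearly identical control peaks (28439095 to 28439492 and 28439096 to 28439482 on chromosome 7, log10 q -34.4 and -33.3), which are the same place under separate calls. It had no knockout peak. Mrps6 and Mrps33 were control-only and weak (-3.10 and -1.64), and Mrps10 and Mrps17 knockout-only and weak (-2.66 and -3.47). Mrps9 had a weak control peak (-2.00) and a knockout-only peak downstream of it (fold 2.56, log10 q -12.9). Further shared peaks of Mrps11, Mrps15, Mrps21 and Mrps30 had control folds between 1.72 and 8.56 and knockout folds between 2.45 and 5.63.

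**Figure D2:**
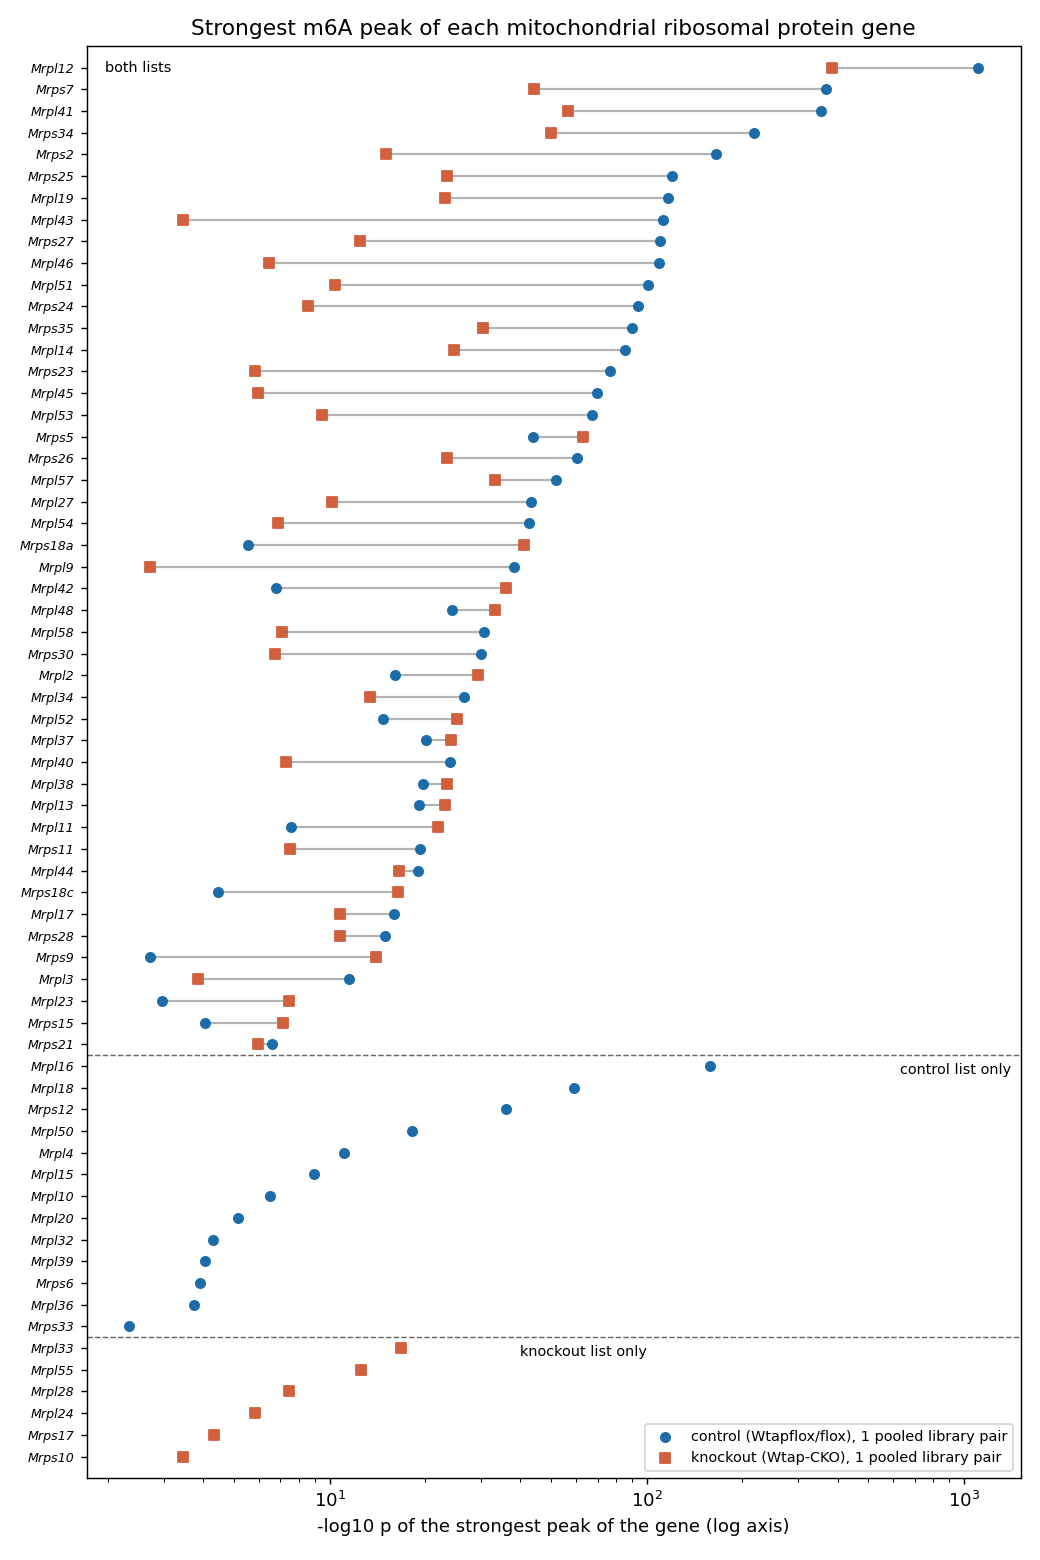
The strongest peak of each of the 65 genes as -log10 p (log axis), blue circles for the control and orange squares for the knockout list, grey lines joining genes found in both. In 32 of the 46 genes of both lists the control point lies further right.

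Across the 46 genes of both lists, the strongest peak had the smaller p in the control for 32 (69.6%, 54.2 to 82.3), against 54.5% of all genes in both lists. The 45 overlapping pairs of 41 genes had a lower fold in the knockout list in 28 (62.2%, 46.5 to 76.2), a higher one in 16 and an equal one in 1, against 49.6% of 16899 pairs over all genes. Both of these backgrounds lie inside the members' intervals. The knockout fold was at most 0.5 of the control fold in 17 pairs (37.8%), against 17.9% of all pairs, and at least 2 times the control fold in 8 (17.8%), against 17.1%. The median log2 ratio of knockout over control fold was -0.31 (-1.05 to 0.04) for members and 0.01 for all pairs. The interval of the member median includes 0. Of the pairs whose control peak was strong, 24 of 32 (75%, 56.6 to 88.5) were lower in the knockout, against 58.1%. Of those whose knockout peak was strong, 16 of 28 (57.1%, 37.2 to 75.5) were lower there, against 42.7%. Both backgrounds lie inside the members' intervals. Of the pairs whose control peak was not strong, 4 of 13 (30.8%, 9.09 to 61.4) were lower in the knockout, against 37.5%, and of those strong in neither list 3 of 7 (42.9%), against 45.9%. The pairs were narrower in the knockout list in 27 (60%) and wider in 13, against 7817 (46.3%) and 7112 of all 16899 pairs. Median widths were 330 (control) and 233 (knockout) exonic bases, against 330 and 301 over all pairs.

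**Figure D3:**
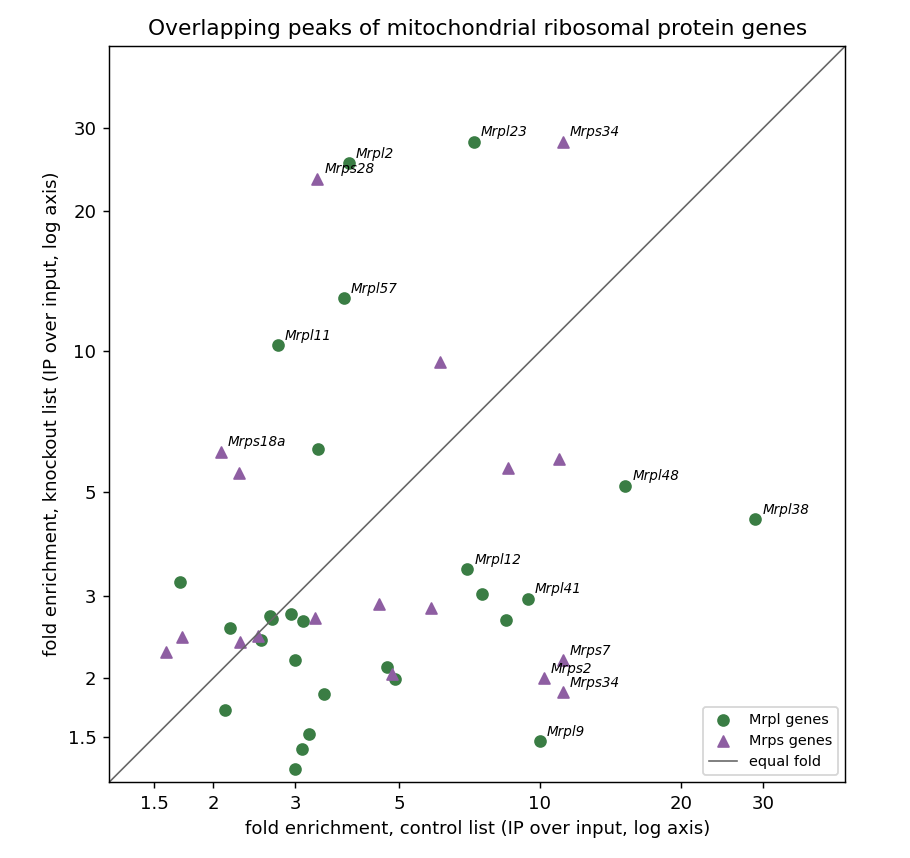
Fold of IP over input of the 45 overlapping peak pairs, control list on the horizontal and knockout list on the vertical log axis, green circles for Mrpl and purple triangles for Mrps genes, with the line of equal fold. Below the line lie 28 pairs, among them Mrps7 (11.2 and 2.19) and Mrpl41 (9.42 and 2.96).

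By gene name (Mrpl or Mrps, which is not quite by subunit, since the proteins of Mrps18a and Mrps30 are placed in the large subunit) and by origin, the intervals of the shares overlapped. Of strong control peaks without counterpart, Mrpl genes had 12 of 33 (36.4%, 20.4 to 54.9) and Mrps genes 7 of 17 (41.2%, 18.4 to 67.1). Genes with a bacterial homologue had 9 of 24 (37.5%, 18.8 to 59.4) and genes specific to mitochondria 10 of 26 (38.5%, 20.2 to 59.4). Pairs with a lower knockout fold numbered 18 of 27 for Mrpl and 10 of 18 for Mrps genes, and 13 of 22 and 15 of 23 by origin. Genes with a peak in 1 list only were 10 control-only and 5 knockout-only of 38 with a bacterial homologue, and 3 and 1 of 27 specific to mitochondria. No difference between these subgroups was tested.

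The place of single-list peaks was described relative to the peaks the gene has in the other list, not to the ends of the gene. In genes with a peak in the other list, 13 of 17 knockout-only member peaks (76.5%, 50.1 to 93.2) lay upstream of every control peak of the gene, against 53.7% of all such peaks. Of 19 control-only member peaks, 13 (68.4%, 43.4 to 87.4) lay downstream of every knockout peak, against 46%. Most members have a single other peak, so no place between peaks exists. Among genes with 1 peak in the other list, the shares were 11 of 13 (84.6%, 54.6 to 98.1) for knockout-only peaks upstream, against 67.5%, and 13 of 18 (72.2%, 46.5 to 90.3) for control-only peaks downstream, against 64.6%. Both backgrounds fall inside the members' intervals, so no difference in place from other genes is resolved at these counts. By origin, 11 of 13 control-only peaks of genes specific to mitochondria lay downstream (84.6%, 54.6 to 98.1), in 9 genes. Of genes with a bacterial homologue it was 2 of 6 (33.3%, 4.33 to 77.7). These intervals overlap, and the difference was not tested. The genes with an upstream knockout-only peak were Mrpl3, Mrpl12, Mrpl13, Mrpl14, Mrpl19, Mrpl40, Mrpl41, Mrpl51, Mrpl58, Mrps7, Mrps15, Mrps23 and Mrps28, chosen after their values were seen. All of these peaks except that of Mrpl12 were weaker than the strong threshold.

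When peaks of both lists that overlap were joined into regions, 31 members had 2 or more regions. A region called in a single list was counted as having the smaller p in that list. The outcome was thus fixed for Mrpl15, Mrpl50 and Mrpl28, which have peaks in a single list. On this count the last region in the direction of transcription had the smaller p in the control for 25 members (80.6%, 62.5 to 92.5), against 61.4% of 6747 genes. These 25 include the 13 (41.9%, 24.5 to 60.9) called in the control list only, against 22.6%. The first region had the smaller p in the knockout for 21 (67.7%), against 64.6%. These 21 include the 14 (45.2%, 27.3 to 64.0) called in the knockout list only, against 27.6%, which lies inside the interval.

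**Figure D4:**
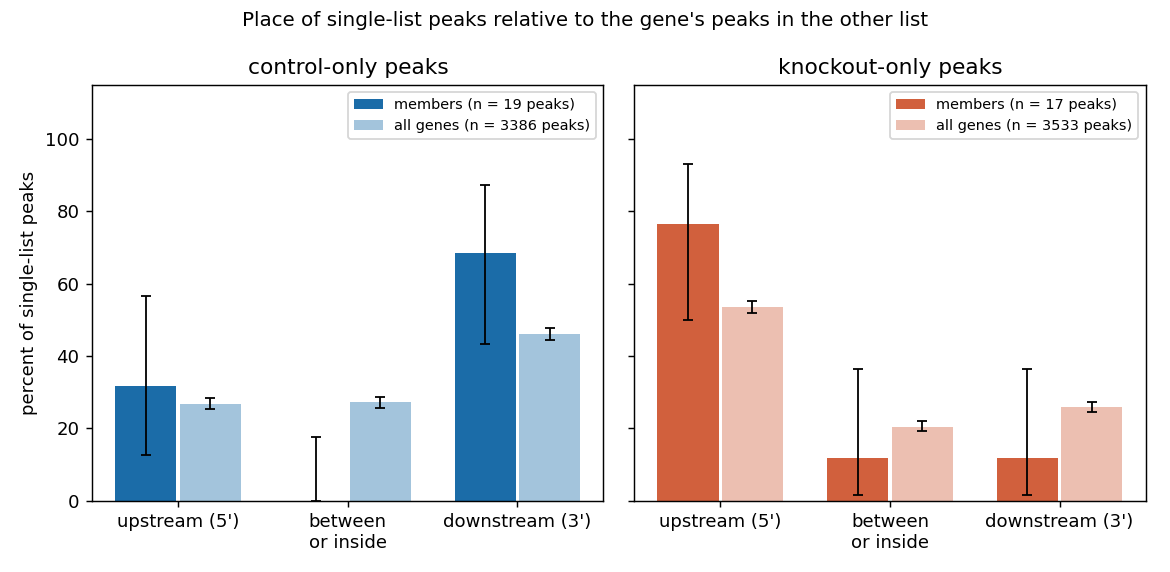
Percent of single-list peaks that lie upstream of, between or inside, or downstream of the peaks their gene has in the other list, members in full colour and all genes pale, with exact 95% binomial intervals. Upstream lie 13 of 17 knockout-only member peaks, and downstream 13 of 19 control-only ones.

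**Figure D5:**
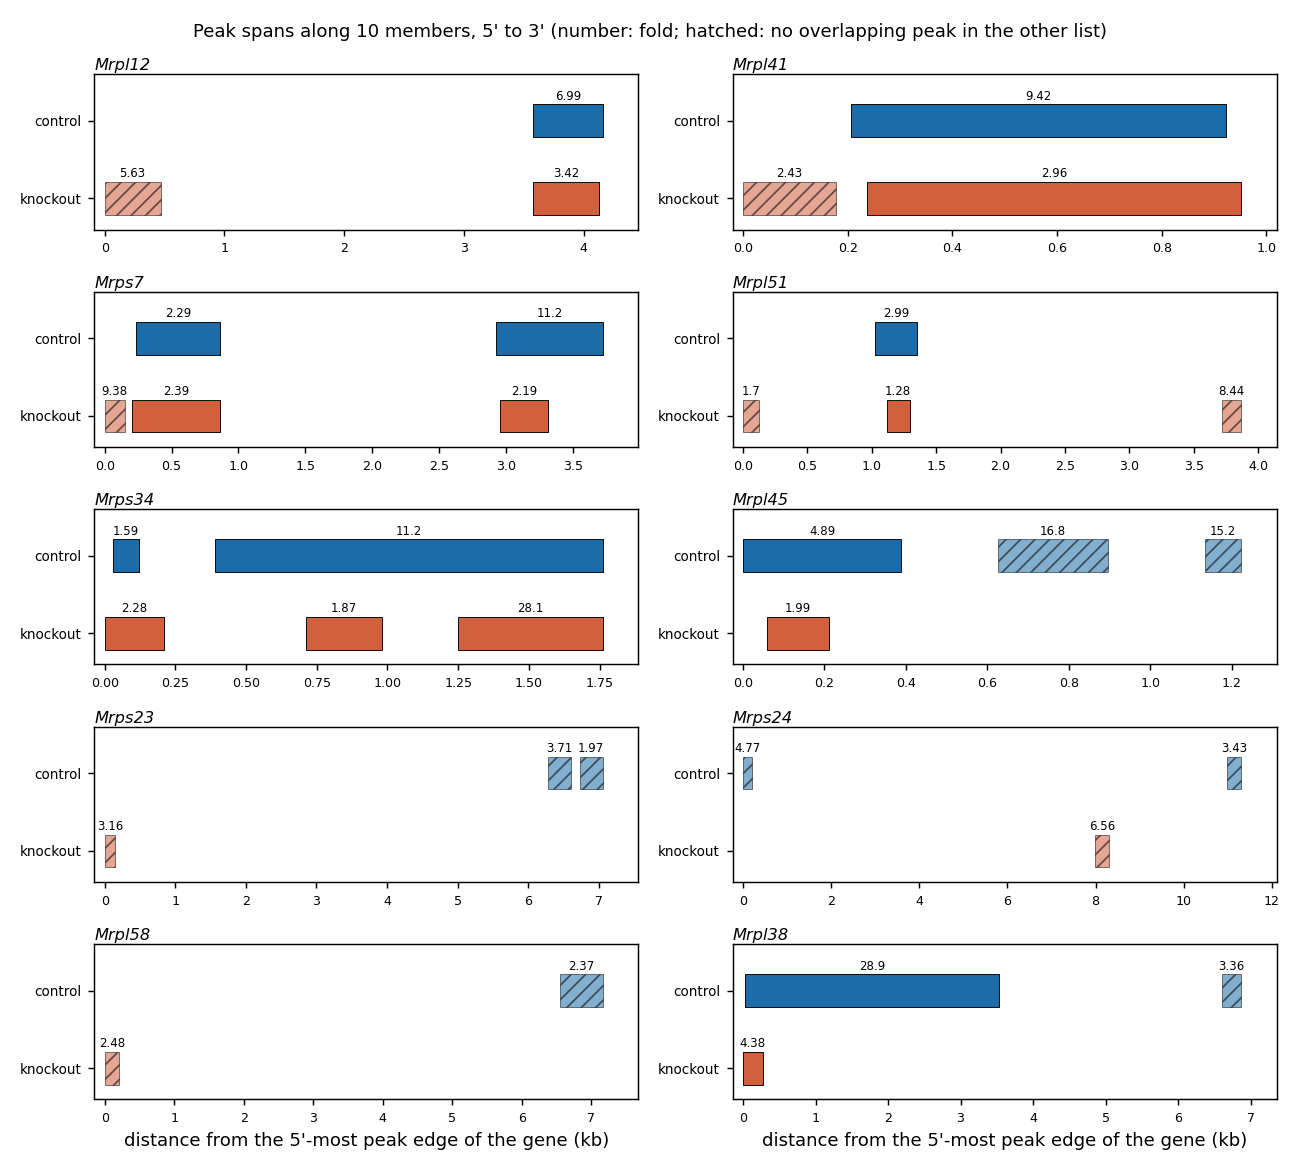
Peak spans of 10 members from the most upstream peak edge (0 kb) in the direction of transcription, control above and knockout below, with fold printed above each bar and hatching where the other list has no overlapping peak. Spans include introns, and each panel has its own scale. In Mrps23 and Mrpl58 the control-only peaks lie over 6 kb downstream of the knockout-only peak.

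The other genes of mitochondrial translation were looked at as 2 further lists. Of the 5 mitoribosomal proteins under other names, Ptcd3, which has pentatricopeptide repeats, had a control peak only (fold 2.94, log10 q -20.6). Gadd45gip1 had a strong shared peak (fold 5.93 and 3.13, log10 q -85.3 and -56.7). Chchd1 went the other way (1.67 and 2.90, log10 q -4.70 and -42.0), and Dap3 and Aurkaip1 had weak shared peaks with a log10 q above -9 in either list. Of 46 symbols for translation factors and assembly genes, 28 genes were listed for both genotypes, 8 for the control alone and 1, Mterf3, for the knockout alone. The control-only share was 21.6% (9.83 to 38.2), against 10.5% of all genes, and the knockout-only share 2.7% (0.0684 to 14.2), against 11.9%. Both backgrounds lie inside the intervals. In 26 of their 37 overlapping pairs (70.3%, 53.0 to 84.1) the fold was lower in the knockout, against 49.6% of all pairs. The 4 strongest were Oxa1l, which inserts new proteins into the inner membrane (6.08 and 1.74, log10 q -296 and -11.9), Tfam, which packages mitochondrial DNA (13.7 and 6.61, -239 and -55.3), Mrm3, a ribosomal RNA methyltransferase gene (18.4 and 6.36, -144 and -43.0), and Taco1, a translational activator gene (11.8 and 2.15, -125 and -4.30). Of 32 strong control peaks in this list, 8 (25%, 11.5 to 43.4) had no knockout counterpart, against 8.72% of all strong control peaks. None of 19 strong knockout peaks lacked a control counterpart (0 to 17.6%), against 4.04%, which lies inside the interval.

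Nuclear oxidative phosphorylation and cytosolic ribosomal protein genes had more knockout-only than control-only genes. Over all genes with a peak, 10.5% were in the control list only and 11.9% in the knockout list only. Of 66 nuclear oxidative phosphorylation genes with a peak, it was 2 (3.03%) and 21 (31.8%, 20.9 to 44.4). Of the members it was 13 (20%) and 6 (9.23%), the latter near the share of all genes. Overlapping pairs of the nuclear oxidative phosphorylation genes had a lower fold in the knockout list in 10 of 46 (21.7%, 10.9 to 36.4). It was 28 of 45 in the members and 49.6% of all pairs. Of their strong control peaks, 1 of 32 (3.12%, 0.0791 to 16.2) had no knockout counterpart, with the 8.72% of all genes inside the interval. Of 35 cytosolic ribosomal protein genes with a peak, 2 were in the control list only and 13 in the knockout list only. These groups share the 4 libraries with the members, and the differences between groups were not tested. Of the cardiomyocyte markers, 11 of 32 strong control peaks had no knockout counterpart (34.4%, 18.6 to 53.2), against 8.72% of all strong control peaks. All 8 genes kept peaks in both lists. Of their 22 control-only peaks of any strength, 14 came from 2 genes, between or inside the knockout peaks. The interval treats such peaks as independent. Of the fibroblast, endothelial and smooth muscle markers, 0 of 5, 0 of 4 and 0 of 7 strong control peaks lacked one. Of the immune markers it was 0 of 1 and of the erythroid markers 1 of 5. On the knockout side, 8 of 17 fibroblast, 5 of 12 endothelial, 5 of 13 smooth muscle, 1 of 3 immune and 0 of 4 erythroid marker peaks had no control counterpart. It was 1 of 25 cardiomyocyte marker peaks and 24.5% of all knockout peaks. Fold was higher in the knockout list in 7 of 9 fibroblast, 7 of 8 endothelial, 8 of 10 smooth muscle and 17 of 25 cardiomyocyte overlapping pairs. It was 2 of 4 erythroid and 1 of 2 immune pairs, and 8487 of 16899 pairs over all genes. The lists hold no transcript levels, and the part of cell composition in the members' result was not tested.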

How the data were processed

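The authors deposited 1 peak list per genotype, called with exomePeak 2.16.0 in the IP against its own input at q 0.05, per the series' design text. GRCm39, BWA 0.7.12, fastp 0.19.11 and HOMER 4.9.1 are named in the submitters' processing notes, without roles. The deposited score column holds the caller's p-value per peak. The authors' log10 p and q values are taken as a score because some are minus infinity (by q, 3 control peaks of members). The authors' fold is a ratio, IP over input, not logged.

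Computations used scipy 1.17.1, pandas 2.3.3 and numpy 2.4.6 in Python 3.11.15, and matplotlib 3.10.9 drew the plots. Samples were grouped by genotype and antibody labels (the knockout titles use a different abbreviation), and genes were matched by Ensembl ID. Alternatives were stricter q and fold, other overlap rules, equal list sizes, other thresholds of strong, and pseudogenes or further mitoribosomal genes added. The overlap code was run on copies of 19795 control peaks, either shifted by a few bases or moved to a made-up chromosome. It found 100% of the former and 0% of the latter, which the construction fixes. This checks the code only, not whether real lost or shifted peaks are recognised. RefSeq symbols (GRCm38.p6) served for names only. Sequences, transcript regions and motifs were not analysed here, since no genome of the files' build was used.

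Members and lists were chosen with earlier results of these data known. Named were members by smallest q (10 shared, 8 per single-list class), largest fold (5 per list), 2 or more peaks, no overlap or strong single-list peaks. Pair, position and region counts were added after the data were seen.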

Additional observations from a re-analysis of the deposited data

How the results depend on the processing

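Of 144 values under alternative settings, 130 stayed within the interval of the reported value or within 1.5 times a reported count. Such intervals are wide and some settings change little, and the count does not ask whether the comparison with all genes held. Of the 14 values outside, all but 2 came from requiring a fold of at least 4 in both lists. This leaves 29 member genes in the control and 22 in the knockout list, 11 in both and 11 in the knockout list only. Median folds were then 8.52 and 7.5 and median log10 q -35.3 and -15.4 (control and knockout). The share without counterpart was then 78.1% of control and 68.2% of knockout peaks (31.6% and 31.7% over all genes), and among strong peaks 81.8% and 61.5% (21.2% and 13.6%). Taking 15574 peaks from each list gave a median control log10 q of -27. With strong set at a log10 q of -20, 0 of 22 strong knockout peaks lacked a counterpart (0%, 0 to 15.4), against 1.43% over all genes, inside that interval. Of strong control peaks it was 12 of 34 (35.3%, 19.7 to 53.5), against 6.27%. With strong set at -5 it was 12 of 54 knockout peaks (22.2%, 12 to 35.6), against 9.02%, which lies below that interval. Of control peaks it was 23 of 58 (39.7%, 27 to 53.4), against 13%. The background of all knockout peaks stayed inside the interval at q 0.01 and under the other overlap rules, and that of strong ones with equal list sizes. Leaving out member peaks on another gene's peak gave 16 of 45 strong control peaks (35.6%), against 8.72% of all strong control peaks, which were not filtered. The settings under which genes were classed again only remove peaks, so no gene could go from 1 list alone to the other. At a fold of at least 4, 18 of 65 kept their class. No paired analysis was possible because each genotype had 1 pooled IP and input pair. Without read counts, missing calls may reflect depth, which was not tested.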

Other observations

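The 2 pseudogene names left out of the rule had peaks in both lists. Mrpl27-ps stood at fold 5.07 (control) and 7 (knockout; log10 q -23.8 and -40.2), and Mrps36-ps1 stood at 3.06 and 3.61 (-11.4 and -18.9), so both stood higher in the knockout list, while Mrpl27 itself stood at 3.46 and 1.85. The sources used here do not say how reads were assigned between a gene and its copies.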
